A study of Mus musculus with 32 samples.

Results

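Cubilin (*Cubn*), megalin (*Lrp2*), amnionless (*Amn*), disabled-2 (*Dab2*) and the receptor-associated protein RAP (*Lrpap1*) form one endocytic receptor system, and their transcripts were followed in neoplastic cells of mouse lung adenocarcinomas. The 5 genes were taken by symbol from the 53558 genes in the deposited tables, and each was found. The set was chosen by the measured level of *Cubn*, which was high in tumors without *Lkb1* (gene symbol *Stk11*) and low once *Lkb1* was restored, and the other 4 genes were added as its partners. The difference of *Cubn* among those groups, and every member's difference between restored and non-restored tumors with wild-type *Trp53*, are therefore described here without a test.

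Cubilin and megalin are very large receptors that sit together on the apical surface of absorptive epithelia, above all the proximal tubule of the kidney, the ileum and the visceral yolk sac, where they take up albumin, vitamin-carrier complexes, lipoproteins and small filtered proteins. Cubilin has no transmembrane segment and depends on amnionless to be anchored and carried to the surface, whereas megalin is a transmembrane receptor of the LDL receptor family that can also internalise cubilin with its cargo. DAB2 is a clathrin adaptor that binds the megalin tail, and RAP is a chaperone of the endoplasmic reticulum that keeps ligands off receptors of the LDL receptor family during their folding. Megalin is also known in alveolar type II (ATII) cells of the lung, the cells from which these tumors commonly arise.

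RNA was sequenced from 32 libraries in 5 groups. All mice carried *KrasLSL-G12D* and a tdTomato reporter at *Rosa26*, and tumors were started with Cre delivered to the airways by lentivirus, so that the targeted cell is whichever lung epithelial cell took up the virus. *KT* tumors (*KrasLSL-G12D;Rosa26LSL-tdTomato*, n = 4) kept wild-type *Lkb1* and were untreated. Non-restored tumors (n = 10) carried *Lkb1XTR/XTR*, an allele that Cre turns into a gene trap, and came from 2 control arms, 4 libraries given tamoxifen without *FLPo-ERT2* and 6 given corn oil vehicle with *FLPo-ERT2*. Restored tumors (n = 7, all from females) carried the same alleles with *FLPo-ERT2*, a recombinase switched on by tamoxifen, opposite the reporter at *Rosa26*, and the trap was excised during 2 weeks of tamoxifen at 4 mg per dose. For non-restored and restored tumors n counts libraries. By the study's count there were fewer mice than libraries in these groups, so some libraries may share a mouse. The other two groups carried *Trp53flox/flox* in addition and were non-restored (7 libraries from 4 animals, 5 libraries given vehicle with *FLPo-ERT2* and 2 given tamoxifen without it) or restored (n = 4, all from females). *Trp53* wild-type tumors were 24 to 27 weeks old and *Trp53*-deficient tumors 16 to 19 weeks old, so that *Trp53* status and tumor age cannot be told apart. Cells positive for CD45, CD31, F4/80 or Ter119, which mark blood and endothelial cells, were sorted away.

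Total counts per library ranged from 1302482 to 5943951. *Stk11* followed the labels, at 16.3 to 27.3 CPM (counts scaled to library totals adjusted by TMM) in *KT* and 11.7 to 22.3 CPM in restored libraries, against 0 to 1.32 CPM without restoration. With *Trp53* deleted it was at 8.48 to 14.9 CPM after restoration and 0 to 0.772 CPM without it. *Trp53* was at most 6.51 CPM in *Trp53*-deficient libraries and at least 11.8 CPM in all others. The 10 epithelial and ATII markers were detected in every group, with sums from 7878 to 87810 CPM. Non-restored replicate 8 stood apart with the lowest of these sums (7878 CPM, against 26110 to 56620 in the other non-restored libraries) and the highest airway marker sum of its group (6606 CPM, against 8.81 to 1382). Immune markers were highest in restored replicate 1 (186 CPM over 9 genes), restored replicate 6 (117 CPM) and non-restored replicate 2 (79.4 CPM), and were 0 to 23.0 CPM in the rest. In 7 comparisons 0 of the tested markers of any of these cell types passed the test. Against *KT*, 10 of 10 epithelial and ATII, 3 of 7 airway, 4 of 9 immune and 1 of 4 mesothelial markers were tested in non-restored tumors. In that comparison 5.86% of all genes passed, but 0 of all genes did between the non-restored arms or on restoration with *Trp53* deleted. The count is thus no measure of equal cell content. Median ATII sums were 68030 CPM in *KT*, 43120 in non-restored and 68250 in restored libraries.

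*Cubn* lies on chromosome 2 (GRCm38, chr2:13276338-13491813, minus strand, ENSMUSG00000026726) and *Lrp2* on the same chromosome and strand (chr2:69424340-69586065, ENSMUSG00000027070). *Amn* is at chr12:111271095-111276426 (plus strand, ENSMUSG00000021278), *Dab2* at chr15:6299788-6440712 (plus strand, ENSMUSG00000022150) and *Lrpap1* at chr5:35091501-35105766 (minus strand, ENSMUSG00000029103). All are protein-coding. The longest annotated transcripts of *Cubn* and *Lrp2* span 11262 and 15460 bases, against 1701 for *Amn*, so an equal number of molecules gave many more reads for the receptors than for amnionless, and levels between genes are compared in TPM, transcript abundances that allow for length and library size.

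The 250 bases upstream of the annotated starts of *Cubn* and *Lrp2* are shown because these partner receptors share a chromosome but differed in their pattern over the groups. Sequences are from RefSeq (GRCm38.p6), read 5′ to 3′ on the gene's strand, at chr2:13491877-13492126 and chr2:69586030-69586279. Capitals mark matches to the motifs listed next.
*Cubn*: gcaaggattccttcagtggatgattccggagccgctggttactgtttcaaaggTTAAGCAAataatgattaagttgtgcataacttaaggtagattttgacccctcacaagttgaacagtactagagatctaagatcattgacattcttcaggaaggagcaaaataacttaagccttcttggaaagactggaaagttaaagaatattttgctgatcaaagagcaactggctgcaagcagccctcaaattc
*Lrp2*: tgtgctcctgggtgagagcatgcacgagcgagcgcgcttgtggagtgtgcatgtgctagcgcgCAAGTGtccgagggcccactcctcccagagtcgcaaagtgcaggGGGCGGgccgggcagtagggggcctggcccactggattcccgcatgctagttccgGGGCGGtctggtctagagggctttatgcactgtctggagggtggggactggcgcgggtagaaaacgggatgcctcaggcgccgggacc

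The *Cubn* window had a GC content of 39.6% and 2 CpG dinucleotides, whereas the *Lrp2* window had 66.4% and 18. Over 32851 mouse windows of 250 bases the quartiles of GC content were 45.2% and 61.2%, so *Cubn* was below and *Lrp2* above the middle range. Both strands were searched for 9 letter patterns, which were picked after these sequences had been seen. These were CRE (TGACGTCA), its half-site (TGACG), C/EBP (TTGCNNAA), the SP/KLF GC box (GGGCGG), an HNF1 half-site (GTTAAT), AP-1 (TGANTCA), an E-box (CACGTG), the NKX2-1 core (CAAGTG) and a TATA box (TATAAA). CRE contains the half-site, and none of the others contains another. In the *Cubn* window 1 match was found, to the C/EBP pattern on the opposite strand at position -197 from the start, a pattern held by 9.56% of all windows. The *Lrp2* window held GC boxes at -143 and -88 (32.7% of windows hold one) and the NKX2-1 core at -187 (11.6% of windows). *Lrpap1* held 5 GC boxes, *Amn* a GC box at -35 and an E-box at -26, and the pair of *Dab2* starts a C/EBP pattern at -21 and an HNF1 half-site at -65. The CRE, its half-site, AP-1 and the TATA box were not found in these windows, which says nothing beyond the letters of these windows.

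Over the *KT*, non-restored and restored groups, *Lrp2* was the most abundant of the set, with mean levels of 112 TPM ± 23.9 (SD, n = 4), 87.8 ± 44.5 (n = 10) and 83.8 ± 45.3 (n = 7). It exceeded 95.8%, 94.7% and 94.9% of the genes detected in the respective group. *Lrpap1* followed at 18.4 ± 3.83, 19.1 ± 6.21 and 22.3 ± 10.4 TPM. *Dab2* was at 4.04 ± 2.47, 5.55 ± 6.28 and 9.01 ± 11.4 TPM, and *Cubn* at 0.940 ± 0.883, 2.38 ± 0.944 and 0.284 ± 0.360 TPM. *Amn* was listed at 0 TPM in most libraries. Within a library, the ratio of *Lrp2* to *Cubn* in TPM had a median of 246 in *KT*, 546 after restoration and 36.4 without it, and with *Trp53* deleted a median of 19.8 after restoration and 3.16 without it. *Lrp2* exceeded *Cubn* in all libraries but 2 of the *Trp53*-deficient non-restored group, replicate 2 (2.12 against 2.42 TPM) and replicate 7 (1.00 against 4.41 TPM, the lowest ratio at 0.227).

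**Figure D1:**
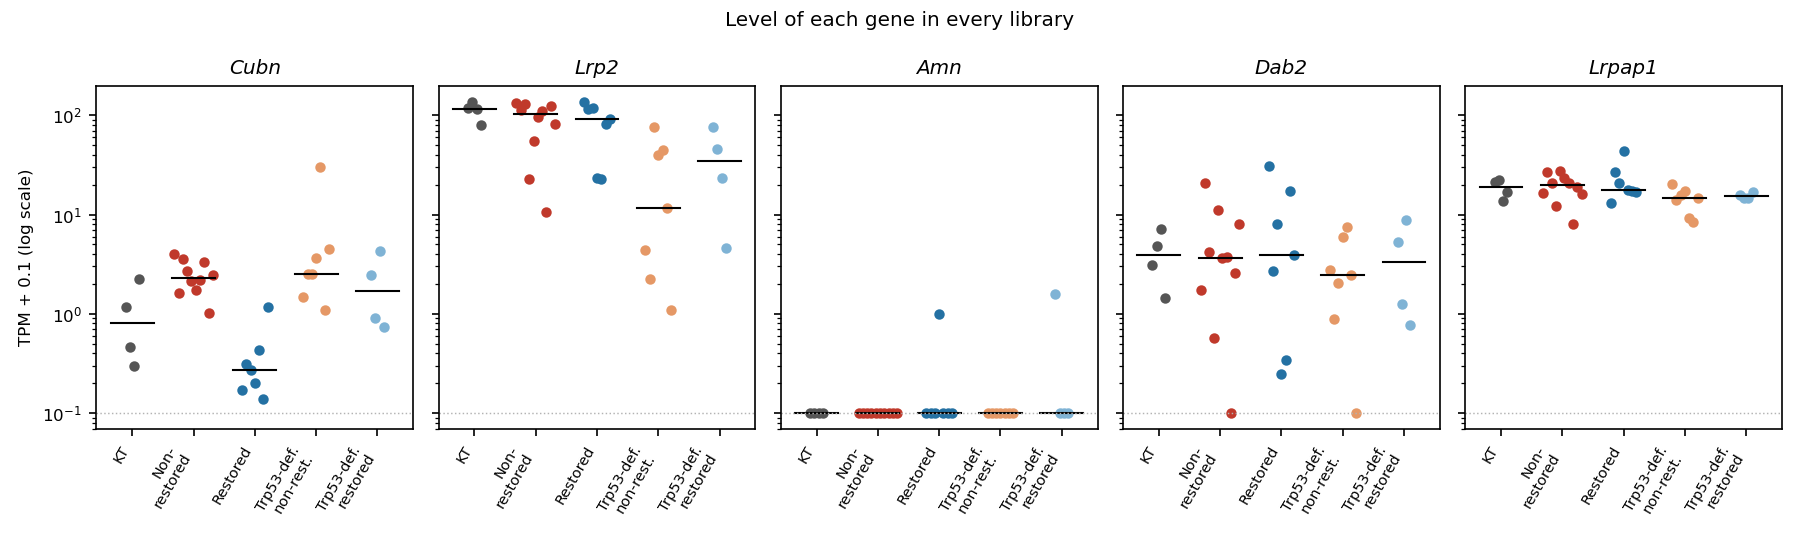
Level of each gene in every library, as TPM plus 0.1 on a log axis, for the 5 groups; each point is a library, horizontal lines are group medians and the dotted line marks 0 TPM. *Lrp2* lies near 100 TPM in most *Trp53* wild-type libraries, *Cubn* has a median of 2.22 TPM in non-restored and 0.170 TPM in restored libraries, and *Amn* is at 0 in 30 of 32 libraries.

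*Cubn*, the peripheral receptor, was present in all 10 non-restored libraries and at a few counts in restored ones. In non-restored libraries 1 to 10 the level was 3.95, 1.52, 3.45, 2.63, 2.04, 1.62, 2.10, 3.20, 0.91 and 2.34 TPM. In restored libraries 1 to 7 it was 0.07, 0.21, 0.17, 0.1, 0.33, 0.04 and 1.07 TPM. All restored libraries but the seventh were below every non-restored library on this scale. In restored replicate 7, which held 8 counts, the effective length of *Cubn* was 1619 bases, compared with about 11070 in the other restored libraries. On the CPM scale, which uses no length, the groups did not overlap, with 7.61 to 29.5 CPM in non-restored and 0.300 to 2.71 CPM in restored libraries. The counts behind these values were 19 to 94 per non-restored and 1 to 12 per restored library. The difference on the log2 scale was -3.71 (SE 0.47), or 13.1-fold lower in restored tumors, and it is the difference that led to the choice of *Cubn*. For all genes, 1.87% of 12636 tested passed the test in this comparison. Over 26 alternative fits the value was -4.02 to -3.26, including -3.39 (SE 0.58) against the tamoxifen arm and -3.89 (SE 0.50) against the vehicle arm alone. These fits reuse the libraries that led to the choice of *Cubn*, so they describe the processing and are no support for the difference. In these bulk libraries, fewer cells that express a gene and less RNA per cell cannot be told apart.

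In *KT* tumors, where *Lkb1* was never lost, *Cubn* was at 1.06, 0.360, 0.200 and 2.14 TPM, from 14, 4, 3.34 and 39 counts. The range in *KT* overlapped that of both other *Trp53* wild-type groups. The higher pair came from males (9.59 and 18.7 CPM) and the lower pair from females (3.32 and 1.36 CPM). Non-restored tumors were 1.14 higher than *KT* tumors on the log2 scale (SE 0.50), and restored tumors were -2.58 (SE 0.55) relative to *KT*. With female libraries alone these differences became 3.30 (SE 0.64) and -0.59 (SE 0.66), so the distance of either group from *KT* changed by more than 1.5 times without the male libraries. Sex did not order the non-restored libraries in the same way, since the 3 males had 7.61 to 18.4 CPM and the 7 females 12.8 to 29.5 CPM. The difference between restored and non-restored tumors was -3.89 (SE 0.36) in females alone. The part of sex in these values was not tested.

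**Figure D2:**
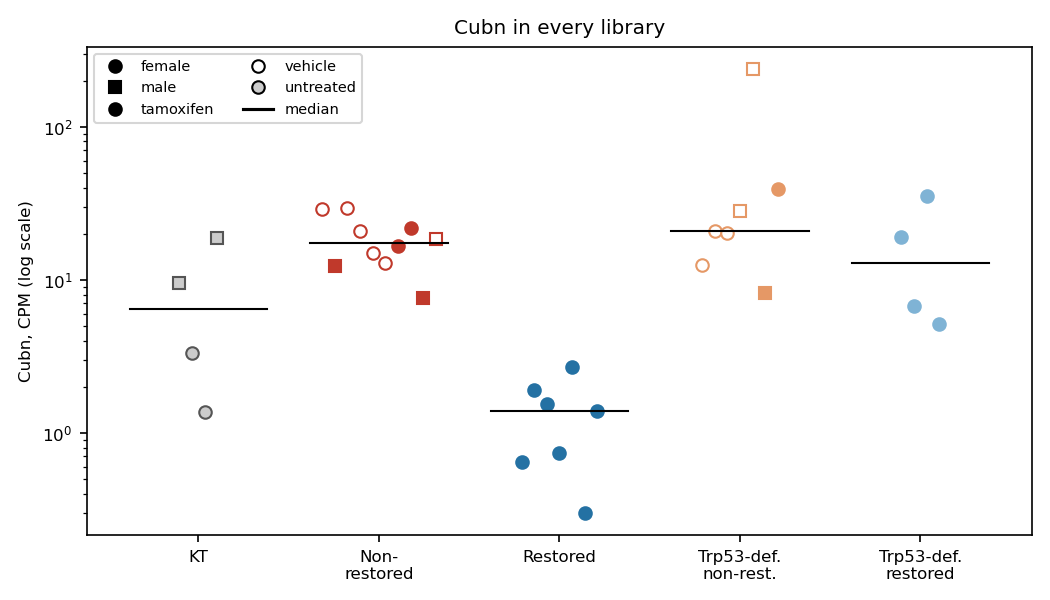
*Cubn* in every library, in CPM on a log axis, by group; circles are females, squares males, filled symbols tamoxifen, open symbols vehicle, gray symbols untreated, and lines medians. The 7 restored libraries lie between 0.300 and 2.71 CPM, below all 10 non-restored libraries, whereas *Trp53*-deficient restored libraries lie between 5.12 and 35.3 CPM.

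The pooling of the non-restored arms was examined with a test, since both arms belong to the same group. *Cubn* was at 1.52, 2.10, 3.20 and 0.910 TPM in the tamoxifen arm and at 1.62 to 3.95 TPM in the vehicle arm (median 2.49), and the arms overlapped. The log2 difference was -0.54 (SE 0.33, edgeR adjusted p = 0.9996). None of the 4 members tested passed (*Lrp2* 0.08, SE 0.64; *Dab2* 0.41, SE 1.03; *Lrpap1* -0.19, SE 0.22), beside 0% of 11561 genes by edgeR, with 378 genes at an unadjusted p under 0.05 and 11 called by DESeq2. Tamoxifen treatment and the *FLPo-ERT2* allele differ together between these arms and cannot be told apart.

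In *Trp53*-deficient tumors *Cubn* was detected in all restored animals, in a range that overlapped that of non-restored tumors. The 4 restored animals had 2.35, 0.810, 4.15 and 0.630 TPM. Non-restored animal 1 had 1.37, 2.42 and 2.43 TPM in its 3 libraries, animal 2 had 3.52 and 30.3 TPM in its 2 libraries, animal 3 had 0.990 TPM and animal 4 had 4.41 TPM. The value of 30.3 TPM (693 counts) was the highest *Cubn* level in the series. By title, the libraries of 30.3 TPM in animal 2 and 2.43 TPM in animal 1 were labelled T1, and the others of these animals Bulk. With libraries summed per animal (4 against 4), the log2 difference was -1.53 (SE 0.95, edgeR adjusted p = 0.804). Without the library of 30.3 TPM it was -0.48 (SE 0.68, adjusted p = 0.907), an alternative chosen after seeing the data, and without animal 2 altogether it was -0.35 (SE 0.79, adjusted p = 0.911). *Lrp2* (0.89, SE 1.00, adjusted p = 0.879), *Dab2* (0.35, SE 0.97, adjusted p = 0.951) and *Lrpap1* (0.29, SE 0.20, adjusted p = 0.805) did not pass either. In this comparison 0% of 12516 genes passed by edgeR, 748 had an unadjusted p under 0.05, and DESeq2 called 23. *Stk11* also missed the threshold by edgeR (5.15, SE 0.57, adjusted p = 0.0587).

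Set against *Trp53* wild-type tumors of the same restoration state, *Cubn* was 3.53 higher in restored tumors on the log2 scale (SE 0.64). The 4 libraries (5.12 to 35.3 CPM) did not overlap with the 7 of wild-type *Trp53* (0.300 to 2.71 CPM), whose low *Cubn* was part of its choice. Of 13706 genes, 0.372% passed the test in this comparison, and the share of genes without overlap was not counted. In non-restored tumors the corresponding value was 1.35 (SE 0.50), or 0.31 (SE 0.43) without the library of 30.3 TPM, and the ranges overlapped. The difference on restoration was thus 2.18 (SE 0.84) less negative in *Trp53*-deficient tumors, or 3.21 (SE 0.71) without the library of 30.3 TPM. These 3 values share their libraries with the comparison that chose *Cubn* and are given without a test. By edgeR 0% of 13706 genes passed the test of such a difference between *Trp53* backgrounds, with 422 at an unadjusted p under 0.05 and 0 by DESeq2. Values of the other members were 0.88 (SE 1.03) for *Lrp2*, -0.46 (SE 1.5) for *Dab2* and 0.14 (SE 0.25) for *Lrpap1*.

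*Lrp2*, the transmembrane partner and the main scavenger receptor of the pair, did not share the pattern of *Cubn*. It was at 118, 137, 115 and 80.0 TPM in *KT* libraries 1 to 4. Non-restored libraries ranged from 10.6 to 134 TPM (median 103), and restored libraries were at 137, 114, 117, 23.3, 22.9, 80.7 and 90.7 TPM. The groups overlapped, and the spread came from a few low libraries, non-restored replicates 8 and 4 (10.6 and 22.8 TPM) and restored replicates 4 and 5. The log2 difference of non-restored from *KT* tumors was -0.46 (SE 0.53, edgeR adjusted p = 0.669), and that of restored from *KT* tumors was -0.48 (SE 0.57, adjusted p = 0.828). Restored and non-restored tumors differed by -0.02 (SE 0.45). Of the 3 members tested against *KT*, 0 passed in either comparison, beside 5.86% of 12636 genes for non-restored and 0.459% for restored tumors.

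In *Trp53*-deficient tumors *Lrp2* had lower mean levels, 25.6 TPM ± 28.6 (7 libraries) in non-restored and 37.5 ± 30.8 (n = 4) in restored tumors. Animal 1 alone held 4.33, 2.12 and 76.0 TPM in its 3 libraries, and animals 2, 3 and 4 held 39.4 and 44.6, 11.6 and 1.00 TPM. The 4 restored animals were at 76.1, 45.8, 23.5 and 4.49 TPM. Libraries of animal 1 thus spanned nearly the whole range of the group. By title, those with 4.33 and 2.12 TPM were labelled Bulk and the one with 76.0 TPM was labelled T1. Relative to wild-type *Trp53*, the log2 difference was -2.22 in non-restored tumors (SE 0.80, edgeR adjusted p = 0.164, unadjusted p = 0.0108) and -1.34 in restored tumors (SE 0.79, adjusted p = 0.410). The first value passed with DESeq2 (-2.24, adjusted p = 0.0462) and with edgeR when non-restored replicate 8 was left out (-2.37, adjusted p = 0.0472), a step that also raised the number of genes called from 80 to 1448. In all, 0.584% of 13706 genes passed in the non-restored and 0.372% in the restored comparison, and 0 of the 3 members tested passed in either.

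Several libraries low in *Lrp2* also held less of the ATII markers and more of the mesothelial markers. *Trp53*-deficient non-restored replicate 7, with 12.4 CPM of *Lrp2*, had 9816 CPM of the 10 epithelial and ATII markers, 306 CPM of the 4 mesothelial markers and 12950 CPM of the airway markers. Non-restored replicate 8, with 92.2 CPM of *Lrp2*, had 7878, 239 and 6606 CPM. *Trp53*-deficient restored replicate 4 differed from these, since it had the lowest *Lrp2* of its group (46.5 CPM) with the highest ATII sum of that group (45070 CPM) and 65.9 CPM of mesothelial markers. By contrast restored replicate 3, with 1439 CPM of *Lrp2*, had 87810, 3.06 and 67.0 CPM. Over 32 libraries the deviations of log2 *Lrp2* from the group means correlated at r = 0.780 with those of the ATII markers and r = -0.752 with those of the mesothelial markers, as a description over libraries that share groups and in part animals. The fibroblast and smooth muscle markers gave r = 0.796. The ATII sum was 38200 to 74610 CPM in *KT*, 7878 to 56620 in non-restored and 36040 to 87810 in restored libraries, against 9816 to 41350 and 30060 to 45070 CPM in non-restored and restored libraries with *Trp53* deleted. The mesothelial sum was 0.830 to 7.68 CPM in *KT*, 5.61 to 249 in non-restored and 0 to 57.6 in restored libraries, against 14.3 to 326 and 43.5 to 157 CPM with *Trp53* deleted, and *Wt1* was at 0 in *KT* and restored libraries. Only 1 of the 4 mesothelial markers had enough counts to be tested, so that sum may rest on few genes. Which cells expressed these markers, and their part in the *Lrp2* level, was not tested. *Cubn* gave r = -0.138 with the ATII and 0.103 with the mesothelial markers on the same scale, but on levels, with the differences between groups kept, r was -0.569 and 0.557. The median mesothelial sum was 2.11 CPM in *KT*, 14.6 CPM in non-restored and 2.27 CPM in restored tumors. With *Trp53* deleted it was 166 CPM without and 81.1 CPM after restoration. Median *Cubn* was 6.45, 17.4 and 1.38 CPM in the first 3 of these groups, and 20.8 and 12.8 CPM with *Trp53* deleted. Both medians were lower in restored than in non-restored tumors of either *Trp53* background. Their orders over the groups differed. The median mesothelial sum was higher in *Trp53*-deficient restored (81.1 CPM) than in *Trp53* wild-type non-restored tumors (14.6 CPM). It was alike in *KT* and in restored tumors with wild-type *Trp53*. The part of mesothelial marker expression in the *Cubn* level was not tested.

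*Amn*, the anchor without which cubilin is not carried to the apical membrane, was near absent. A total of 7 counts was found over 32 libraries, 3 in restored replicate 4 (0.890 TPM) and 4 in *Trp53*-deficient restored replicate 1 (1.48 TPM). In the other 30 libraries 0 counts were found, which allows up to 0.505 CPM in the deepest and 2.30 CPM in the shallowest library of the series, for counting error only. In the 10 non-restored libraries, where *Cubn* was at 19 to 94 counts, *Amn* had 0. Because the *Amn* transcript is much shorter than that of *Cubn*, a low level could not be detected at this depth. *Amn* did not pass the filter on low counts and was not tested, whereas the other 4 members passed it in each fit. *Cubn* may have passed that filter through the groups in which it was high.

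*Dab2*, the adaptor that links megalin to clathrin and also binds TGF-beta receptors, was low and very variable. It had 1.35 to 7.13 TPM in *KT*, 0 to 20.6 TPM in non-restored and 0.150 to 31.0 TPM in restored libraries, from 0 to 116 counts. *Trp53*-deficient libraries had 0 to 7.40 TPM in the non-restored and 0.670 to 8.77 TPM in the restored group. All group ranges overlapped. Log2 differences were 0.22 for non-restored against *KT* (SE 1.06, edgeR adjusted p = 0.935) and 0.99 for restored against *KT* (SE 1.12, adjusted p = 0.816). Restored and non-restored tumors differed by 0.77 (SE 0.82). With *Trp53* deleted the values were -0.76 in non-restored (SE 1.05, adjusted p = 0.730) and -1.22 in restored tumors (SE 1.13, adjusted p = 0.615). Standard errors of about 1 on the log2 scale mean that changes of 2-fold were within the error.

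The levels of *Dab2* moved with markers of several other cell types, among them immune and endothelial cells, which the sort was meant to remove. The highest *Dab2* levels were 47.6 CPM in restored replicate 1, 34.7 CPM in restored replicate 6 and 33.6 CPM in non-restored replicate 2, the libraries with the highest immune marker sums (186, 117 and 79.4 CPM). Those same libraries had 89.3, 40.4 and 117 CPM of the 9 endothelial markers. At 0 counts of *Dab2* (non-restored replicate 8 and *Trp53*-deficient non-restored replicate 7) the endothelial sums were 2.33 and 5.96 CPM. Deviations of *Dab2* from the group means correlated over 32 libraries at r = 0.838 with the endothelial, 0.752 with the immune, 0.666 with the fibroblast and smooth muscle and 0.603 with the macrophage markers. They gave r = 0.571 with the epithelial and ATII and -0.635 with the mesothelial markers. Group ranges of the endothelial sum were 11.8 to 23.2 CPM in *KT*, 2.33 to 148 in non-restored and 3.94 to 89.3 in restored libraries, and with *Trp53* deleted 5.96 to 56.9 without and 2.45 to 86.4 after restoration. All 9 endothelial markers had counts in each group. The part of such cells in the *Dab2* counts was not tested.

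**Figure D3:**
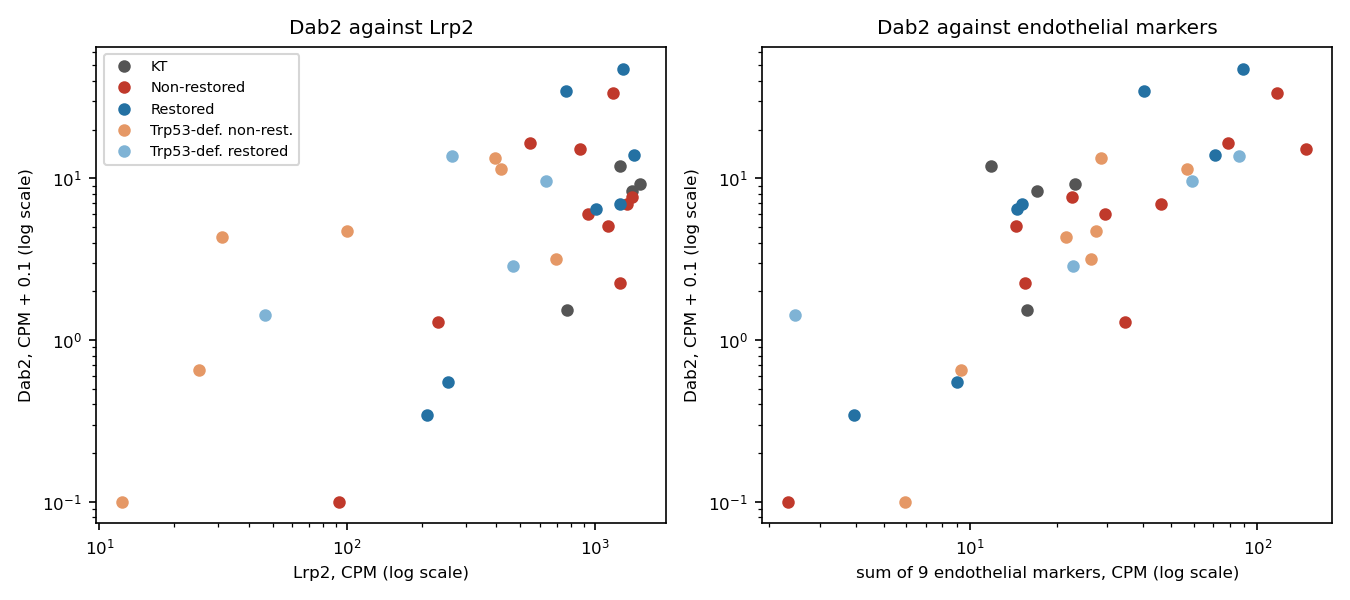
*Dab2* in every library, in CPM plus 0.1 on a log axis, against *Lrp2* in CPM (left) and against the sum of 9 endothelial markers in CPM (right), both on log axes; each point is a library colored by group. *Dab2* is at 0 in 2 libraries, which are also low in *Lrp2* and in endothelial markers, and the points rise together in both panels.

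Low *Dab2* and low *Lrp2* coincided in some libraries. In restored replicates 4 and 5 *Dab2* was at 0.246 and 0.451 CPM and *Lrp2* at 209 and 256 CPM, compared with at least 6.37 CPM of *Dab2* and 766 CPM of *Lrp2* in the other restored libraries. In non-restored replicate 1, however, *Dab2* was at 2.14 CPM with *Lrp2* at 1262 CPM, and *Trp53*-deficient restored replicate 3 had the highest *Dab2* of its group (13.6 CPM) with *Lrp2* at 265 CPM. Over 29 units (21 *Trp53* wild-type libraries and 8 *Trp53*-deficient animals) the deviations from group means correlated at Pearson r = 0.741 and Spearman rho = 0.481. *Lrpap1* was less close to *Lrp2* (r = 0.325), and *Cubn* was unrelated to it on this scale (r = 0.0507).

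*Lrpap1*, which encodes the chaperone RAP, was the steadiest member. It ranged from 13.7 to 22.0 TPM in *KT*, 7.90 to 27.6 in non-restored and 13.0 to 43.6 in restored libraries, and from 8.23 to 20.1 and 14.7 to 16.9 TPM in *Trp53*-deficient non-restored and restored libraries. In CPM the highest value in the series was 41.6, in restored replicate 4, and the lowest 16.3. Log2 differences were -0.04 for non-restored against *KT* (SE 0.17, edgeR adjusted p = 0.926), 0.08 for restored against *KT* (SE 0.18, adjusted p = 0.928) and 0.12 for restored against non-restored tumors (SE 0.14). With *Trp53* deleted it was lower by values that did not pass the test, -0.48 in non-restored (SE 0.17, adjusted p = 0.162) and -0.35 in restored tumors (SE 0.18, adjusted p = 0.355). The former passed without non-restored replicate 8 (-0.56, adjusted p = 0.0201), which held the lowest *Lrpap1* of its group at 17.2 CPM.

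**Figure D4:**
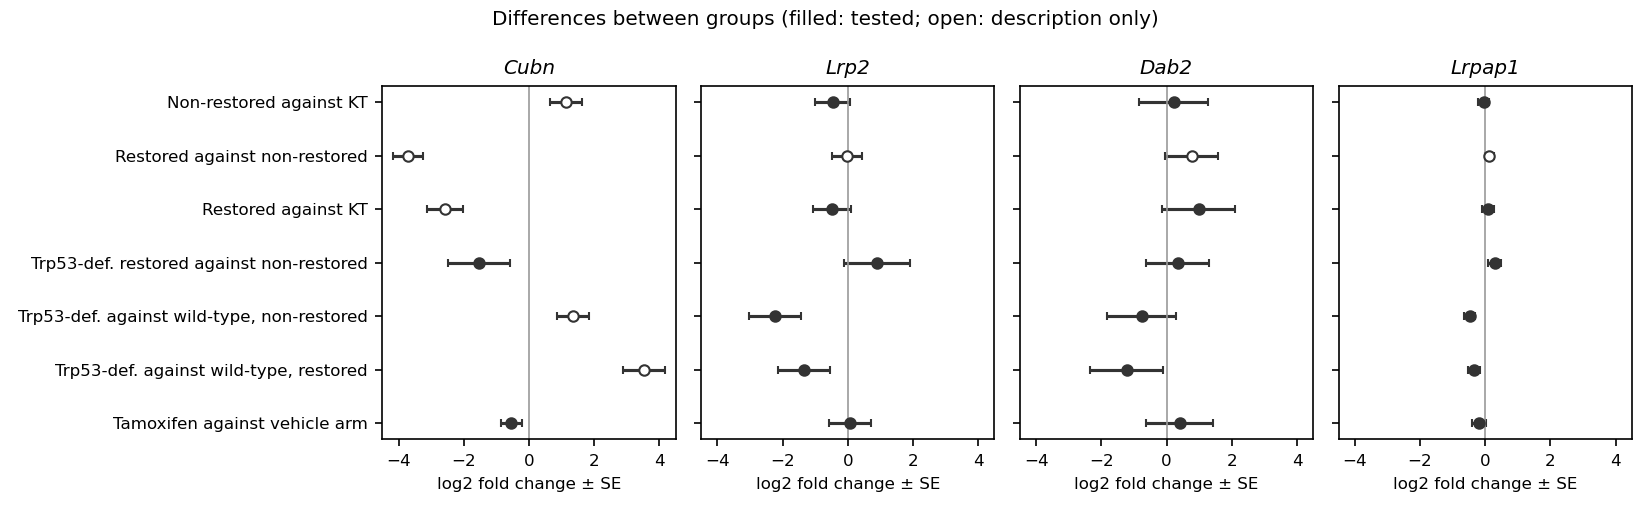
Log2 fold changes with standard errors of the 4 members that passed the filter, for 7 comparisons; filled symbols were tested and open symbols are descriptions. *Cubn* spans -3.71 to 3.53, *Lrp2* -2.22 to 0.89, and *Lrpap1* stays within 0.48 of 0.

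In the order of mean TPM over the 5 groups, *Cubn* was highest in *Trp53*-deficient non-restored tumors (6.50 ± 10.6, 7 libraries from 4 animals). Non-restored, *Trp53*-deficient restored (1.98 ± 1.64), *KT* and restored tumors followed. The highest mean included the library of 30.3 TPM, and the medians of the first 2 groups were close, at 2.43 and 2.22 TPM. *Lrp2* ran from *KT* through non-restored, restored and *Trp53*-deficient restored to *Trp53*-deficient non-restored tumors. *Dab2* was highest in restored and lowest in *Trp53*-deficient non-restored tumors (3.00 ± 2.68), as was *Lrpap1* (14.2 ± 4.25). By median, however, *Dab2* was at 3.79 TPM in restored and 3.835 TPM in *KT* libraries. Each pair of neighbours in these orders of the means had overlapping ranges.

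The genes that work with these receptors were counted in 9 lists, of which 150 of 198 genes were tested in the *Trp53* wild-type libraries. In non-restored against *KT* tumors 5 rose and 5 fell (6.67%, beside 5.86% of all genes), and on restoration 3 rose and 2 fell (3.33%, beside 1.87%). Restored against *KT* tumors gave 0 calls by edgeR among the 150, beside 0.459% of all genes. At an unadjusted p under 0.05 there were 17 of the 150, beside 1333 of all 12636 genes. The median log2 difference over the lists was 0.11 for non-restored against *KT* and -0.02 on restoration, against 0.03 and -0.01 over all genes. No member of the LDL receptor family and sortilins (15 tested), the clathrin coat and its adaptors (28), the apical endosome (28), vitamin B12 uptake (13) or the RAP-related chaperones (9) passed edgeR's test in any comparison. At an unadjusted p under 0.05 these 5 lists held 6, 3, 5, 3 and 0 genes in non-restored against *KT* tumors, beside 2626 of all 12636 genes. In *Trp53*-deficient against wild-type non-restored tumors they held 4, 2, 4, 1 and 7, beside 2430 of 13706 genes. The 7 were among 9 RAP-related chaperones tested, whose median log2 difference was 0.46, against -0.02 over all genes.

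Among 17 ligands tested, *Rbp4*, the plasma carrier of retinol, fell in non-restored tumors from 51.2 CPM ± 16.0 (n = 4) to 8.32 ± 3.61 (n = 10), a log2 change of -2.63 (SE 0.34, adjusted p = 7.35e-05). It rose on restoration to 25.2 ± 4.07 (n = 7, 1.61, SE 0.31, adjusted p = 0.00691). *Lcn2*, an iron-siderophore binding lipocalin, fell by 1.74 on the log2 scale (SE 0.31, adjusted p = 0.00159), from 2043 to 614 CPM. The third ligand that fell, *Apoe* (-3.20, SE 0.58, adjusted p = 0.00199), is an apolipoprotein. *Mt2*, a metallothionein, rose by 1.45 (SE 0.38, adjusted p = 0.0264), but its adjusted p was 0.0588 to 0.0853 when any 1 *KT* library was left out.

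Of 12 brush border genes tested, *Slc5a1*, a sodium-glucose transporter, fell (-1.87, SE 0.44, adjusted p = 0.0137) and *Aqp1*, a water channel, rose (2.71, SE 0.71, adjusted p = 0.0269) in non-restored tumors. The call of *Aqp1* was lost without *KT* replicate 3 or 4 (adjusted p = 0.106 and 0.0894), and that of *Slc5a1* without *KT* replicate 2 (0.0649). In *Trp53*-deficient non-restored tumors *Slc9a3r1*, the scaffold NHERF1, was 0.76 higher than with wild-type *Trp53* (SE 0.17, adjusted p = 0.0373), the 1 call among 154 list genes in that comparison. It missed the threshold under most alternatives (adjusted p up to 0.256). Of 5 kidney tubule markers, *Slc34a1*, *Slc22a6*, *Umod* and *Kap* were at 0 counts in all groups. The other, *Slc5a2*, had counts in non-restored, restored and *Trp53*-deficient restored libraries, and the sum reached 2.64 CPM at most.

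Of 12 transcription factors of tubule and gut epithelium, 0 passed edgeR's test in non-restored against *KT* tumors, with 2 at an unadjusted p under 0.05. Among 16 signaling partners of DAB2, *Itgb3*, an integrin beta chain, rose in non-restored tumors from 6.14 CPM ± 3.41 to 47.4 ± 27.9 (2.95, SE 0.47, adjusted p = 0.000547) and fell on restoration to 6.68 ± 1.98 (-2.82, SE 0.35, adjusted p = 9.01e-05). *Tgfbr2*, the type II TGF-beta receptor, rose by 0.93 (SE 0.16, adjusted p = 0.000943) and fell by 0.69 on restoration (SE 0.13, adjusted p = 0.00478). *Itgb1* also rose (0.56, SE 0.13, adjusted p = 0.0112), a call lost when *KT* replicate 1 was left out (0.055). In females alone *Tgfbr2* and *Itgb1* missed the threshold against *KT* (adjusted p = 0.106 and 0.262), as did *Aqp1* (0.257) and *Slc5a1* (0.106). With the tamoxifen arm alone *Apoe* missed it against *KT* (0.0544), and *Rbp4* (0.0614) and *Tgfbr2* (0.103) missed it on restoration. *Apoe* and *Itgb1* are named in addition to the rule for naming genes, which took 2 genes per list and direction.

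The genes whose levels were most like *Cubn* over the 29 units, among 13272 genes, were *Rbm3*, an RNA-binding protein known for its induction by cold (Pearson r = 0.823), *Itgav*, the integrin alpha V chain (0.733), *Ptprn* (0.729), the zinc importer *Slc39a4* (0.723) and the condensin subunit *Ncapg2* (0.722). Of these, *Rbm3* and *Ncapg2* were also among the 5 closest by rank correlation. With group means taken out, *Gm7265* (0.686), *Rbm3* (0.630), *Mtm1* (0.625), *Zfp451* (0.609) and *Zbtb1* (0.601) were closest. The units share groups and differ in depth, and *Cubn* had few counts in restored libraries, so these values are descriptions. The other receptor genes were not among them, with r of -0.265 for *Lrp2*, -0.205 for *Dab2* and -0.320 for *Lrpap1* on levels.

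The nearest tested genes beside *Cubn* did not follow it. *Rsu1*, 4923 bases away, differed by 0.07 between restored and non-restored tumors (SE 0.09, edgeR adjusted p = 0.795) and *Trdmt1*, 17201 bases away on the other side, by 0.09 (SE 0.21, adjusted p = 0.897). *Gm13270*, a noncoding transcript on the opposite strand that overlaps *Cubn*, had 53.9 counts over all libraries, and reads shared between the 2 strands cannot be told apart, since strand-specific counting is not given in the sources used here. Beside *Lrp2*, *Bbs5* (-0.08, SE 0.25) and *Nostrin* (-0.86, SE 0.62) did not pass on restoration (adjusted p = 0.925 and 0.561). Beside *Amn*, *Traf3* rose in non-restored tumors (0.91, SE 0.24, adjusted p = 0.0287) and *Cdc42bpb* did not pass (0.16, SE 0.15, adjusted p = 0.581). The neighbours of *Dab2* (*Ptger4* and *Fyb*) and *Lrpap1* (*Hgfac* and *Acox3*) passed in none of the 4 comparisons examined for them, non-restored and restored against *KT* and restored against non-restored tumors of either *Trp53* background.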

How the data were processed

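RNA-seq of sorted neoplastic cells was analysed for 32 libraries. The authors aligned reads to mm10 with STAR 2.6.1d and estimated gene abundance with RSEM 1.2.30, per the labels and the study's methods. The deposited expected counts are not normalized and were rounded to whole numbers (5.57% of values were not whole). The deposited TPM were scaled by the authors for effective length and library size. Effective lengths, a deposited score in bases, served as offsets in an alternative. Tables of normalized counts and 4 tables of fold changes and p-values made by the authors with DESeq2 1.26.0 were not used. All columns of values per library used here belong to a library, and 0 were left unassigned.

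Counts were filtered with filterByExpr, scaled by TMM and tested with edgeR 4.0.16 (quasi-likelihood F test, robust; limma 3.58.1, R 4.3.3), with Benjamini-Hochberg adjustment over all genes and a threshold of 0.05. SE is the absolute log2 fold change divided by the square root of F. The 21 *Trp53* wild-type libraries were fitted in 3 groups, 4 against 4 *Trp53*-deficient animals (libraries of 1 animal summed by title) in a second fit, 25 units for comparisons between *Trp53* backgrounds and the interaction, and 10 non-restored libraries for the arms. Log2 CPM used a prior count of 2. The floor for a count of 0 is 3 counts. By the study's count there were fewer mice than libraries among the non-restored and restored tumors, so p-values treat libraries that may share a mouse as independent. No batch is given in the labels. The totals of 1302482 to 5943951 counts limit precision for *Amn*, *Cubn* and *Dab2*.

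The 5 members, the 9 lists and the cell type markers were chosen with earlier results of these data known. Some genes that these rules would name are not reported here. Genes were named by rule, namely the members, *Stk11* and *Trp53*, at most 2 genes per list, direction and comparison with the smallest adjusted p under 0.05, the 5 genes closest to *Cubn* by Pearson r, and the nearest tested gene on each side of a member. Alternatives were DESeq2 1.42.0, median-of-ratios size factors, no filter, length offsets, each replicate left out, a replicate block, females alone, each arm alone, fits of 2 groups alone, and libraries not summed. Coordinates are from GENCODE M21 and promoters from RefSeq. Python 3.11.15 with pandas 2.3.3, numpy 2.4.6 and matplotlib 3.10.9 was used for the rest.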

Additional observations from a re-analysis of the deposited data

Results flagged for a closer look

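A value was singled out where the gap between the highest or lowest library of a group and the next one, as a share of the range of the group, exceeded Dixon's 95% limit. Chance alone would single out about 1 in 20 groups, and 42 sets of values were examined, some of them overlapping. *Cubn* in restored replicate 7 was at 1.07 TPM, against 0.04 to 0.33 TPM in the other 6 libraries, and the gap was 0.718 of the range. This value rests on an effective length of 1619 bases and 8 counts, and on the CPM scale the library was within its group at 1.38 CPM. *Cubn* in *Trp53*-deficient non-restored replicate 5 was at 30.3 TPM, against 0.990 to 4.41 TPM in the other 6 libraries (gap 0.883 of the range). It came from 693 counts in a library titled T1, and the other library of the same animal, titled Bulk, had 3.52 TPM. *Amn* was at 0.890 TPM in restored replicate 4 and at 1.48 TPM in *Trp53*-deficient restored replicate 1, with 0 in every other library of each group, from 3 and 4 counts.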

How the results depend on the processing

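The 20 tests of members were repeated in 348 alternative fits. In 328 of these the direction and the side of the threshold were kept, 3 passed the threshold and 17, in 5 results whose main log2 value was at most 0.405 in size, changed sign without passing it. The 3 were *Lrp2* (-2.24 with DESeq2, -2.37 without non-restored replicate 8) and *Lrpap1* (-0.56 without it) in *Trp53*-deficient against wild-type non-restored tumors. Signs changed with females alone for *Dab2* against *KT* (-0.99) and for *Lrp2* (-0.54) and *Dab2* (-1.40) between the arms, and with the vehicle arm alone for *Lrpap1* in non-restored against *KT* (0.038). With each replicate left out in turn, non-restored against *KT* ranged from -0.24 to 0.56 for *Dab2* and from -0.090 to 0.032 for *Lrpap1*, the arms from -0.14 to 0.46 for *Lrp2* and from -1.01 to 0.83 for *Dab2*, *Trp53*-deficient restored against non-restored from -0.18 to 1.29 for *Dab2*, and *Trp53*-deficient against wild-type non-restored from -2.90 to -1.83 for *Lrp2* and from -0.57 to -0.38 for *Lrpap1*. Same-numbered libraries were not paired in the main fits. Their deviations from group means correlated at r = -0.0547 to 0.501 over 15 pairs, 6 of them over 0.1. The median r was 0.0773, against -0.00604 for other pairs, so a weak pairing is possible. With a replicate block, *Lrpap1* in non-restored against *KT* was 0.086, and the SE of *Lrp2* there was 0.29 in place of 0.53. On restoration the SE of *Lrp2* was 0.23 in place of 0.45. Calls were 666 (non-restored against *KT*), 257 (restored against non-restored) and 63 (restored against *KT*). *Aqp1* against *KT* lost its call (adjusted p = 0.0701), while no member's call changed. Numbers of genes called rose with DESeq2 to 467 on restoration, 168 for restored against *KT*, 23 on restoration with *Trp53* deleted, 412 and 216 for *Trp53*-deficient against wild-type non-restored and restored tumors and 11 between the arms. Females alone gave 132 (non-restored against *KT*) and 10 (restored against *KT*), and the tamoxifen arm alone 280 (non-restored against *KT*) and 50 (on restoration), with fewer libraries in each. *Trp53*-deficient restored against non-restored gave 3 calls without a filter and 1 each with length offsets and with libraries not summed. Leaving out 1 replicate gave 340 to 951 calls for non-restored against *KT*, 145 to 319 on restoration, 21 to 57 for restored against *KT*, 0 to 1 on restoration with *Trp53* deleted, 26 to 1448 for *Trp53*-deficient against wild-type non-restored (1448 without non-restored replicate 8) and 25 to 64 for restored tumors. The cause of these differences was not tested. By Spearman correlation 2 of the 5 genes most like *Cubn* remained among the 5 closest. Depth limits *Cubn* in restored libraries (1 to 12 counts) and *Amn* (0 to 4 counts).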

Other observations

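Genes closest to the other members were looked up after their values were seen. *Lrp2* moved over the 29 units with *Cpm* (Pearson r = 0.975), a carboxypeptidase of the cell surface, and *Bicc1* (0.974). Next were *Dpp4* (0.964), an apical peptidase, *Tmem56* (0.962) and the polarity gene *Pard3* (0.947). Of these, 3 (*Bicc1*, *Cpm* and *Dpp4*) were also among the 5 closest once group means were taken out (0.970, 0.970 and 0.966). *Dab2* was closest to *Tek* (0.833), an endothelial receptor, *Emilin2* (0.833), *Serpine2* (0.814), *Ifitm3* (0.812) and *Dock10* (0.809), and with group means taken out to *Scn7a* (0.892), *Calcrl* (0.861) and *Vim* (0.856). *Lrpap1* was closest to *Slc1a5* (0.796), *Zkscan7* (0.795) and *Baz2b* (0.794). These are descriptions over units that share groups and library depth.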
